A study of Mus musculus with 2 samples.

Results

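The tumor necrosis factor (TNF) ligand and receptor genes were taken as the protein-coding genes of mouse chromosomes 1 to 19 whose symbol begins with Tnfsf or Tnfrsf, together with Tnf, Lta, Ltb, Ltbr, Cd40, Cd70, Fasl, Eda2r and Ngfr. The rule found 40 of 20753 genes, 17 ligands and 23 receptors. Eda2r lies on the X chromosome and was left out by the rule. The family members Fas, Cd27, Edar and Relt do not carry a symbol of this form and were described with the pathway.

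TNF ligands are mostly membrane-bound trimers that cluster their receptors, and the receptors recruit TRAF adaptors or death domain proteins and so activate NF-kB, MAP kinases or caspases. In the thymus, RANKL (Tnfsf11), lymphotoxin (Lta and Ltb) and the CD40 pathway carry signals from lymphocytes to medullary epithelial cells, which present tissue antigens to developing T cells. GITR (Tnfrsf18), OX40 (Tnfrsf4) and TNFR2 (Tnfrsf1b) on thymocytes support the development of regulatory T cells.

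DNase-seq maps open chromatin, since DNase I cuts accessible DNA in nuclei and sequencing locates the cut ends. It was run on whole thymus from 2 females aged 14 days of the B6CASTF1/J hybrid, whose parents are the C57BL/6J and CAST/EiJ strains. The labels call them biological replicates 1 and 2 and give each its own animal number but 1 donor identifier. They form 1 group with no treatment, so the data describe this tissue and allow no comparison of conditions.

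A peak is a stretch of DNA that the authors called accessible, and its strength is the deposited signal, which carries a scaling factor per sample. Strengths were therefore ranked within a replicate, and a difference in level between the replicates was not read. The replicates had 97051 and 108010 peaks in all, and the read depth is unknown. A promoter counted as open if both replicates had a peak no more than 500 bp from a transcription start site (TSS) of the gene. In bulk tissue, fewer cells of a type and less accessible DNA per cell cannot be told apart.

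The labelled tissue was checked against marker genes. All 13 thymocyte markers, such as Cd3e and Rag1, had open promoters, with a median of 29.2 distal peaks per 100 kb. Open promoters were found for 5 of 10 markers of thymic epithelium, 3 of 8 of B cells, 3 of 10 of myeloid and dendritic cells and 4 of 10 of endothelium and mesenchyme. The medians of distal peaks per 100 kb in these lists were 3.53 to 6.62. Over all protein-coding genes, 59.4% had open promoters and the median was 4.62 distal peaks per 100 kb. The open share of each of these lists was below that of all genes. Single markers varied, and those of epithelium ran from 0.896 for Krt5 to 21.2 for Cldn4, with 15.8 for Foxn1. The epithelial markers Foxn1, Psmb11, Krt5, Krt8 and Krt14 had no promoter peak in either replicate, whereas Aire, Ly75, Ccl25, Cldn4 and Epcam did. Of 3 measured regulatory T cell markers, Ikzf2 and Ctla4 were open and Il2ra had a promoter peak in replicate 2 only.

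The promoters of 27 of the 40 genes were open, or 67.5% (95% Wilson interval 52.0% to 79.9%, counting error only), beside 59.4% of all protein-coding genes. The interval includes the share of all genes, but it treats the genes as independent draws and is no test. They were chosen by symbol with earlier results known, and 18 of the 40 lie in loci with more than 1 of them. Receptors were open in 17 of 23 cases (73.9%) and ligands in 10 of 17 (58.8%). With the authors' shorter peak list the count was 23 (57.5%), beside 55.5% of all genes. Cd40, Ltbr, Tnf and Tnfsf9 then lost their promoter peak in at least 1 replicate.

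The open promoters were weak. Their median strength was 1.68 in replicate 1 and 1.23 in replicate 2, beside 6.19 and 4.08 over all open genes. This placed the median gene at percentile 21.5 and 18.7 of open promoters. Of the 27 genes, 26 lay below the 50th percentile in both replicates, and Ltb was the exception. Across the 27 genes the log2 strengths of the replicates correlated with a Pearson's r of 0.84 and a Spearman's rho of 0.81, a description across genes that share the libraries and are not independent replicates. The strength was higher in replicate 1 for 23 of the 27 genes, as it was for 82.7% of all open genes.

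**Figure D1:**
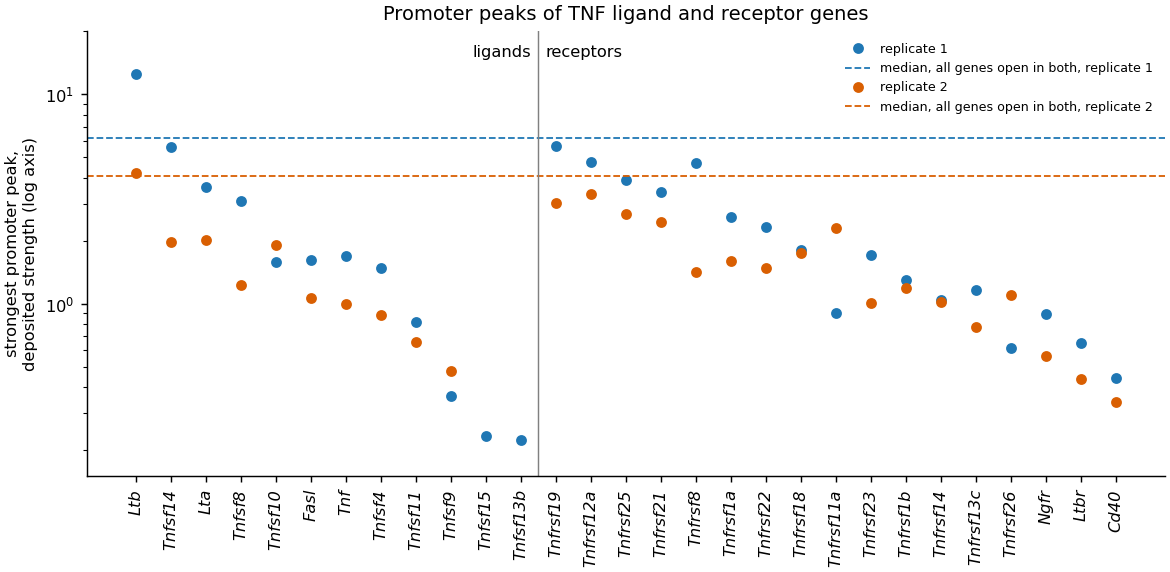
Deposited strength of the strongest promoter peak (log axis) of each gene with a promoter peak, in replicate 1 (blue) and replicate 2 (orange), with ligands on the left and receptors on the right; dashed lines mark the medians of all genes open in both replicates. Ltb is above both lines, and every other gene is below the line of its replicate.

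Among the ligands, Ltb, which encodes lymphotoxin beta, the membrane anchor of the lymphotoxin heterotrimer, had the strongest promoter. Its strength was 12.4 in replicate 1 and 4.23 in replicate 2, at percentiles 75.4 and 51.6. Tnfsf14, the LIGHT gene, had 5.59 and 1.96, and Lta, the lymphotoxin alpha gene, had 3.60 and 2.01. The values of Lta come from different peaks, because of the 500 bp limit. In replicate 2 the peak lay 651 bp downstream of the TSS by its midpoint, and its edge reached the limit. Its counterpart in replicate 1, with the same start and a strength of 5.77, ended short of the limit and was counted as distal. The peak nearer the TSS had 3.60 in replicate 1, with its midpoint 131 bp downstream, and 1.62 in replicate 2.

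Tnfsf8, which encodes the CD30 ligand, followed with 3.08 and 1.23. Tnf itself had 1.68 and 0.996, the death ligand gene Fasl 1.61 and 1.07, and Tnfsf10, the TRAIL gene, 1.58 and 1.91. Tnfsf4, the OX40 ligand gene, had 1.49 and 0.887. The RANKL gene Tnfsf11 was near the bottom with 0.815 and 0.656, at percentiles 11.5 and 9.87. The 4-1BB ligand gene Tnfsf9 was the weakest open ligand promoter, with 0.364 and 0.478.

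Tnfsf15 and Tnfsf13b, the gene of the B cell survival factor BAFF, had a promoter peak in replicate 1 only, with strengths of 0.234 and 0.223. Both values are below the weakest ligand open in both replicates. Cd70, Tnfsf12, Tnfsf13, Tnfsfm13 and Tnfsf18 had no promoter peak in either replicate. Tnfsfm13 is annotated as a joint transcript of its neighbours Tnfsf12 and Tnfsf13, so these genes are not independent.

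The strongest receptor promoter in replicate 1 was that of Tnfrsf19 (TROY), with 5.70 in replicate 1 and 3.02 in replicate 2. Tnfrsf12a, the Fn14 gene and receptor of TWEAK, had 4.77 and 3.35, at percentile 42.2 and 42.1, so its rank was nearly the same in both animals. Tnfrsf8, the CD30 gene, had 4.68 and 1.42, and its percentile was 41.7 in one animal and 21.3 in the other. The death receptor 3 gene Tnfrsf25 had 3.91 and 2.68, and the death receptor 6 gene Tnfrsf21 had 3.43 and 2.46. Tnfrsf1a, which encodes TNFR1, had 2.61 and 1.59. Tnfrsf22, which encodes a decoy receptor of TRAIL, had 2.34 and 1.49.

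The remaining open receptor promoters were low in the ranking. TNFR2 (Tnfrsf1b) had 1.30 and 1.19. The lymphotoxin beta receptor gene Ltbr had 0.649 and 0.438, and Cd40 had 0.441 and 0.340, the weakest open receptor promoter in both replicates. The RANK gene Tnfrsf11a ran against the usual order of the replicates, with 0.904 in replicate 1 and 2.30 in replicate 2. Tnfrsf13c, Tnfrsf14, Tnfrsf23, Tnfrsf26 and Ngfr ranged from 0.618 to 1.71 in replicate 1 and from 0.564 to 1.10 in replicate 2.

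Tnfrsf4 (OX40), Tnfrsf9 (4-1BB), Tnfrsf10b (the mouse TRAIL receptor), Tnfrsf11b (osteoprotegerin, the decoy receptor of RANKL), Tnfrsf13b (TACI) and Tnfrsf17 (BCMA) had no promoter peak in either replicate. The TACI and BCMA genes are receptors of B cells and plasma cells. For all 11 genes closed in both animals, the deposited track of false discovery rates held no base under 0.05 within 500 bp of a TSS of the basic set. The track and the peaks come from the same alignments, so this is no separate evidence that these promoters are closed. The call for Tnfrsf9 and Tnfrsf13b depends on the annotation. With the comprehensive set of GENCODE M21 start sites in place of the basic set, both were open and the count was 29 genes, beside 61.5% of all genes. The distance limit moved calls as well. Within 1000 bp, Tnfrsf9 and Tnfsf13b were open and the count was 29, beside 61.1% of all genes. Within 250 bp, Tnfsf4 was not open and the count was 26, beside 57.6%.

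By group, the thymic crosstalk genes were open in 6 of 7 cases, Tnfrsf11b being the exception. Their median percentile was 12.2 in replicate 1 and 18.9 in replicate 2, although Ltb belongs to them. The costimulatory genes of regulatory T cells were open in 4 of 7 cases: Tnfrsf18, Tnfrsf1b, Tnfsf4 and Tnfsf9. Death domain receptors were open in 4 of 5 cases and the B cell receptors and ligands in 2 of 6, which were Cd40 and Tnfrsf13c, the BAFF receptor gene. The share of all genes was 59.4%, and the costimulatory group, at 57.1%, was close to it. These groups are small, and their shares were not tested.

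The intracellular part of the pathway stood higher. All 32 adaptors and kinases had open promoters, at a median percentile of 42.1 and 52.2, and so did all 8 NF-kB subunits and inhibitors, at 42.1 and 60.5. Of all genes, 59.4% were open. Promoters of the adaptors and kinases ranged from 0.312 for Mlkl to 30.5 for Map3k14 in replicate 1. In replicate 2 they ranged from 0.524 for Mlkl to 10.7 for Sharpin. Map3k14, which encodes the NF-kB-inducing kinase of the noncanonical pathway downstream of LTBR, RANK and CD40, had promoter strengths of 30.5 and 9.95, and Traf2 had 27.7 and 7.54. The other family members were open in 4 of 4 cases. Fas had 5.58 and 2.33, and Cd27, the receptor of CD70, had 6.15 and 2.92. Relt, with 9.76 and 8.33, was the highest of these, and Edar had 1.36 and 2.21.

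**Figure D2:**
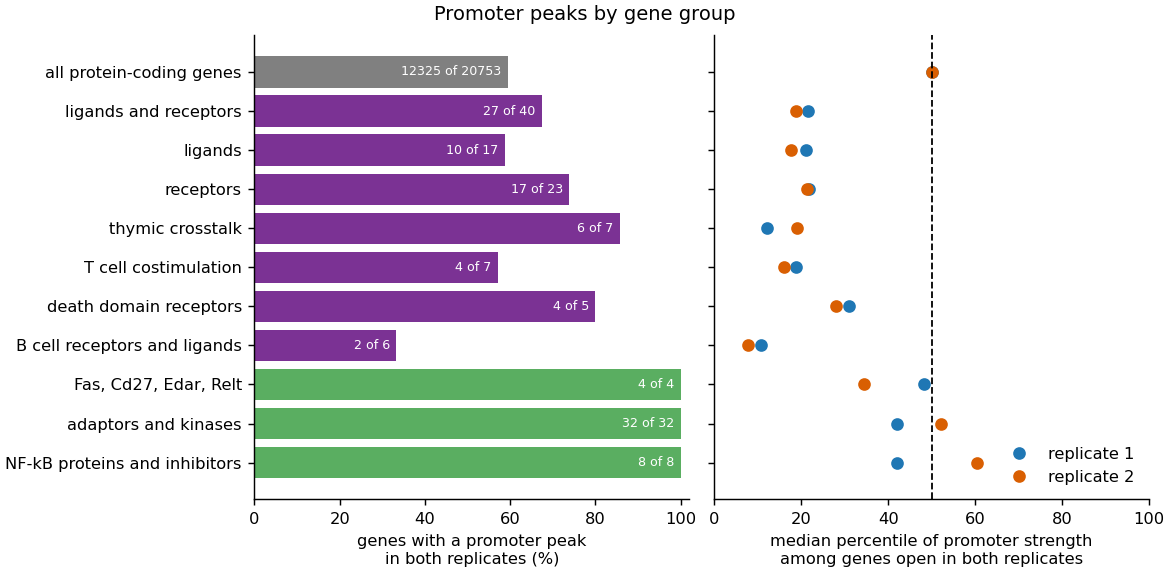
Left, percentage of genes with a promoter peak in both replicates for all genes (grey), groups of ligands and receptors (purple) and other genes of the pathway (green), with the counts in the bars; right, median percentile of promoter strength of the open genes of each group in replicate 1 (blue) and replicate 2 (orange), with 50 for all open genes. The receptors and ligands lie left of the dashed line in every group. Adaptors and NF-kB genes are both at 42.1 in replicate 1, also left of the line, and reach 52.2 and 60.5 in replicate 2.

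The open share was also read by base composition. The CpG ratio, the observed over the expected number of CG dinucleotides within 500 bp of the outermost TSS, had a median of 0.38 over the 40 genes and 0.585 over all genes. Of the 28 genes under a ratio of 0.5, 16 were open (57.1%), beside 21.3% of all genes in that class. Of the 12 genes at or above it, 11 were open (91.7%), beside 88.9%. The limit of 0.5 was chosen after the data were seen. The gap in strength to all genes was wider in the CpG-rich class. Open genes of the family had medians of 1.30 and 1.19 there, beside 7.20 and 4.58 over all open CpG-rich genes. In the CpG-poor class they had 1.74 and 1.33, beside 2.08 and 1.55.

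A footprint is a short stretch inside accessible DNA that is protected from DNase I, as a bound protein would leave it. A promoter footprint in both replicates was found in 26 of the 40 genes (65.0%), beside 57.3% of all genes. Tnf was the open gene without one, having 5 in replicate 1 and 0 in replicate 2. When the footprints of both animals had to overlap by at least 50% of each, the count was 17 genes (42.5%), beside 52.3% of all genes, so the order against all genes turned.

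The promoter sequences that follow show where the protected bases lie in the strongest ligand promoter and in the promoters of Tnfrsf12a and Tnfrsf25. They are the C57BL/6J reference of GRCm38 (mm10), 5′ to 3′ on the strand of the gene, limited to bases outside the UTR. Capitals mark bases inside footprints of both replicates, and CAST alleles are not shown.
Ltb promoter, chr17:35194281-35194438: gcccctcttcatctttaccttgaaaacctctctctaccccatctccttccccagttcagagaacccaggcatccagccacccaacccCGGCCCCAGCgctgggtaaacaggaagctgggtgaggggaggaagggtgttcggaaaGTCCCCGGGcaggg
Tnfrsf12a promoter, chr17:23677469-23677600: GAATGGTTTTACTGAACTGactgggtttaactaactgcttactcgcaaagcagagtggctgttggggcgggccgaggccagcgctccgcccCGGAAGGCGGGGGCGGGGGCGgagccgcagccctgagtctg
Tnfrsf25 promoter, chr4:152116181-152116342: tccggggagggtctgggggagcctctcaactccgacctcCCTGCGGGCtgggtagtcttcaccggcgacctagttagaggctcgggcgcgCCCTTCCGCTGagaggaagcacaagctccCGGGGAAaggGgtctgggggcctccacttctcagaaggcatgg
In the Ltb promoter, a match to the NF-kB consensus at chr17:35194420-35194429 was overlapped by a footprint of each replicate. The Tnfrsf12a stretch held 4 matches to the SP/KLF motif GGGCGG and 1 to the ETS motif CCGGAAG. The Tnfrsf25 stretch held 1 NF-kB match, which a footprint of replicate 1 overlapped. The promoters of Tnfrsf19 and Tnfsf14 were searched in the same way but are not printed. By the mean of both replicates' percentiles, both ranked above that of Tnfrsf25, and Tnfrsf19 also above Tnfrsf12a. The Tnfrsf19 stretch held only 1 match, to the E-box CAGCTG, and the Tnfsf14 stretch held no exact match to any motif searched.

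Across 200 bases around each strongest promoter peak, NF-kB matches were found on either strand in 5 of the 27 open promoters (18.5%), beside 8.43% of all open promoters. They were those of Ltb, Lta, Tnfrsf8, Tnfrsf25 and Cd40, and the windows were centred on the peaks of replicate 1. A footprint touched a match in 4 of the 27 open promoters (14.8%) in replicate 1, beside 4.31% of all open promoters. In replicate 2 it did so in 2 of the 27, Ltb and Cd40, beside 3.79%. These shares are over all promoters, with or without a match. Only in Ltb was the same match touched in both replicates. The E-box CAGCTG was found in 8 (29.6%), beside 11.5%, and GGGCGG in 12 (44.4%), beside 62.3%. A match is a description of the letters and says nothing of which protein binds.

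Distal peaks, which lay more than 500 bp from the TSS of any protein-coding gene, were counted in the gene body and 25 kb to each side. The median over the 40 genes was 7.75 per 100 kb (6.61 in replicate 1 and 8.64 in replicate 2), beside 4.62 over all genes (3.92 and 5.12). Above the median of all genes were 29 of the 40 genes, where 50% of all genes lie by construction. Above the 90th percentile of 14.0 per 100 kb were 11 genes in 8 loci, where 10.0% of all genes lie. Receptors had a median of 10.6 and ligands of 5.87. The count above the median was also 29 when each gene was set against genes of 0.5 to 2 times its span.

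Neighbours share part of these peaks. Overlapping regions joined the 40 genes into 29 loci, of which 7 held 18 genes. Of 193 distinct distal peaks in replicate 1 and 239 in replicate 2, 37 and 49 were counted for more than 1 gene. With 1 value per locus the median was 6.87 per 100 kb. Inside a gene of the family lay 44.0% and 38.1% of the distal peaks, and 20.7% and 25.5% lay inside other genes only. Without the peaks inside other genes, the median was 6.41, beside 2.82 over all genes treated alike.

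**Figure D3:**
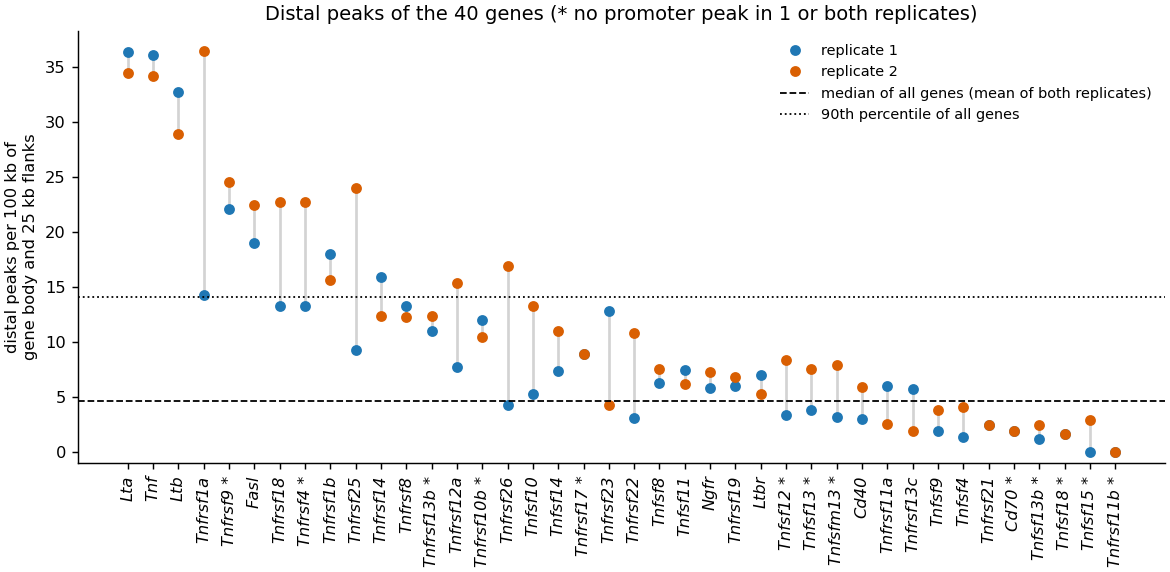
Distal peaks per 100 kb of gene body and 25 kb flanks for each of the 40 genes in replicate 1 (blue) and replicate 2 (orange), joined by a grey line; the dashed and dotted lines are the median (4.62) and the 90th percentile (14.0) of all genes. Lta, Tnf and Ltb are highest in replicate 1, Tnfrsf1a is highest in replicate 2, and Tnfrsf11b is at 0 in both.

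The densest region was that of Ltb, Tnf and Lta, which lie side by side on chromosome 17 of mm10, Ltb at chr17:35194439-35196320, Tnf at chr17:35199381-35202007 and Lta at chr17:35203165-35205351. Within 60913 bp it held 19 distinct distal peaks in replicate 1 and 18 in replicate 2. By gene, Lta had 36.4 and 34.5 per 100 kb, Tnf 36.1 and 34.2, and Ltb 32.8 and 28.9. Taken by gene, Tnfrsf1a was higher than these in replicate 2, at 36.4, and had 14.3 in replicate 1. For Tnf, 14 of 19 peaks in replicate 1 shared at least 1 bp with a peak of replicate 2.

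The strongest distal peak of this region lay in an exon of Ltb, at 1422 bp from its TSS. It had strengths of 13.9 and 9.69 in replicates 1 and 2. That placed it at percentiles 99.5 and 99.9 of all distal peaks, and it was stronger than the Ltb promoter in both animals. A peak inside Tnf, 6222 bp from the Ltb TSS in replicate 1, had 10.4 and 2.52, above the Tnf promoter in both animals. A peak in an intron of Lst1, a leukocyte gene upstream of Ltb, had 5.89 and 4.18.

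**Figure D4:**
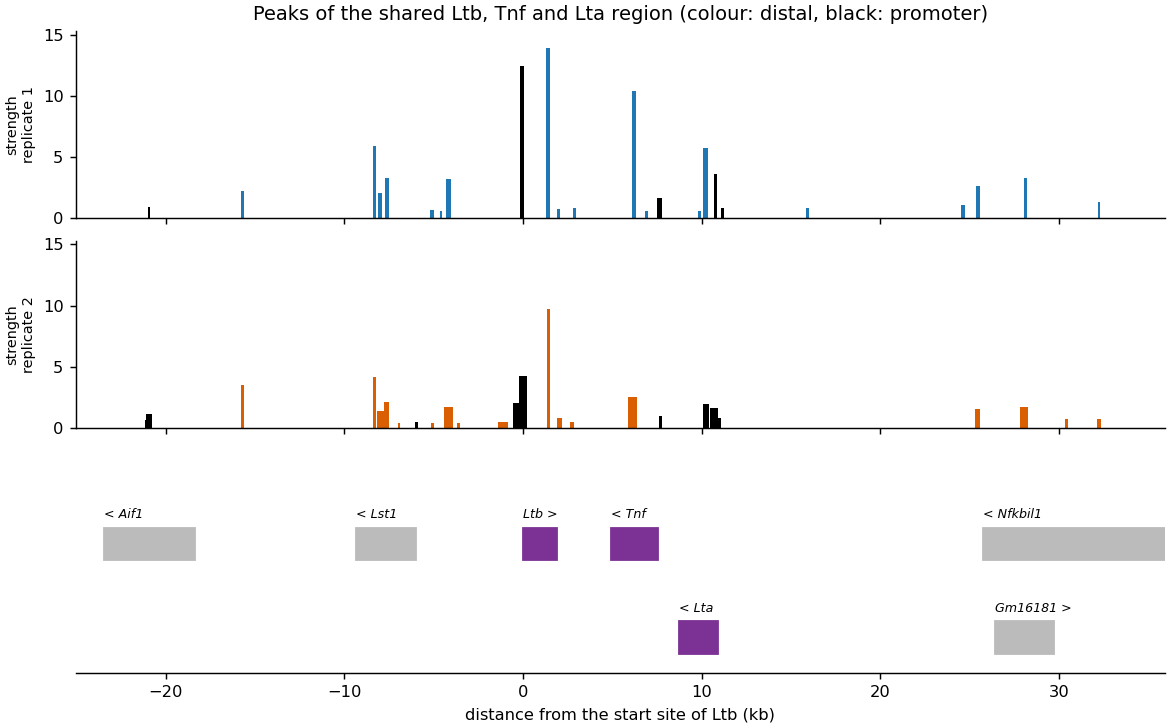
Strength of each peak in replicate 1 (top) and replicate 2 (middle) against distance from the TSS of Ltb in kb, with genes below (purple for Ltb, Tnf and Lta, grey for others, arrowheads for direction); coloured bars are distal and black bars are promoter peaks. The tallest bar in both replicates is the peak in Ltb, with 13.9 and 9.69.

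The exon peak of Ltb and the intron peak of Tnf are shown as the strongest distal peaks of replicate 1 in this region. In replicate 2 other distal peaks of the region, such as that in Lst1, were stronger than the Tnf peak, which was added after its values were seen. Capitals again mark bases inside footprints of both replicates, and each sequence runs 5′ to 3′ on the strand of its gene.
Ltb exon, chr17:35195761-35195960: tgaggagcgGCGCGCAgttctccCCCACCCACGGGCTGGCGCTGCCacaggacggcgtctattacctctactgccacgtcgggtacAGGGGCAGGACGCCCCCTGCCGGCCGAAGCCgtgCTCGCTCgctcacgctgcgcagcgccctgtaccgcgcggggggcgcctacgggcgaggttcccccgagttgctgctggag
Tnf intron, chr17:35200561-35200760: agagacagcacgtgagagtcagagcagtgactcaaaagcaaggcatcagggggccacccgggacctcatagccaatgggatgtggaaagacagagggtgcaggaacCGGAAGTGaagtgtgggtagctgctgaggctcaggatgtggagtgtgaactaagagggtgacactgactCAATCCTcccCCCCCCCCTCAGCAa
In the Ltb exon 68 bases lay in footprints of both animals, and none of the 12 motifs searched had an exact match there. In the Tnf intron 29 bases did, and the ETS motif CCGGAAG, the AP-1 motif TGANTCA and the NFAT motif TGGAAA were found.

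Ranked by the mean of both replicates' percentiles, the next distal peaks after that of the Ltb exon lay inside neighbouring genes. In replicate 1 alone the peak in Tnfrsf1a, with 15.9, was the strongest of all distal peaks of the family. One of the neighbouring peaks, in an intron of Eif4a1 within the region of Tnfsf12, Tnfsf13 and Tnfsfm13, had 15.8 and 7.01. Those 3 ligand genes, whose products include TWEAK and APRIL, had no promoter peak. The other lay in an intron of Osbpl5 in the region of Tnfrsf23, with 5.98 and 6.02. They are printed on the plus strand, with capitals as before.
Eif4a1 intron, chr11:69671291-69671490: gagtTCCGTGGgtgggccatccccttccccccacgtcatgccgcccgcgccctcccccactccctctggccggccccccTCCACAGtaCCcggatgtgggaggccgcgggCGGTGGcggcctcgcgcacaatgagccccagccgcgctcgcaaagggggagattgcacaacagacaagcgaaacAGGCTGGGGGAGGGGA
Osbpl5 intron, chr7:143706821-143707000: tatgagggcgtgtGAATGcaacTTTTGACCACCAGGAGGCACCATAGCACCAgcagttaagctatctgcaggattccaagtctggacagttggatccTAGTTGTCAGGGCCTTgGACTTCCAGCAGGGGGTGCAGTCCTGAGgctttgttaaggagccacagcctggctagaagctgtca
The first of these held 2 matches to GGGCGG. The other held no exact match to any of the 12 motifs, and near matches, such as those to the CTCF consensus, were not counted.

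Costimulatory receptor genes of regulatory T cells were rich in distal peaks whether or not their promoter was open. Tnfrsf9 (chr4:150914562-150946102) had no promoter peak and 18 and 20 distal peaks, or 22.1 and 24.5 per 100 kb. Tnfrsf4 (chr4:156013843-156016612) had no promoter peak either and lies next to Tnfrsf18 (chr4:156026164-156028895), with which it shares its distal peaks. Both genes had 7 in replicate 1 and 12 in replicate 2, and all 7 of replicate 1 overlapped a peak of replicate 2. Tnfrsf1b had 15 and 13, and its strongest shared one, in an exon, had 2.52 and 4.18. The ligands of the group had few, with 1 and 3 for Tnfsf4, 1 and 2 for Tnfsf9 and 1 in each replicate for Tnfsf18.

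Peaks of the Tnfrsf18 and Tnfrsf4 region were moderate in strength. The promoter of Tnfrsf18 had 1.80 and 1.74. Downstream, peaks at 7517 bp (3.92) and 6017 bp (3.80) from its TSS in replicate 1 had counterparts of 2.19 and 1.89 in replicate 2. Upstream, between the 2 genes, a peak at 2453 bp had 3.31 and its counterpart 1.31.

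In the Tnfrsf9 region, 8 of 18 and 9 of 20 distal peaks lay in Tnfrsf9. All of these also lay in introns of Camta1, a neighbour that overlaps Tnfrsf9, so they cannot be assigned to Tnfrsf9 alone. Of the others, 9 and 6 lay in other genes only and 1 and 5 between genes. Among the distal peaks of the Tnfrsf9 region present in both animals, one between genes was the strongest in replicate 1, with 5.95 and 2.18. One in an intron of Camta1, outside Tnfrsf9, was the strongest in replicate 2, with 4.03 and 5.71. A peak of 14.2 and 6.47 lies 5594 bp upstream of the basic TSS. It was classed as a promoter peak of the neighbouring gene Park7, and the comprehensive annotation places a start of Tnfrsf9 there as well.

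**Figure D5:**
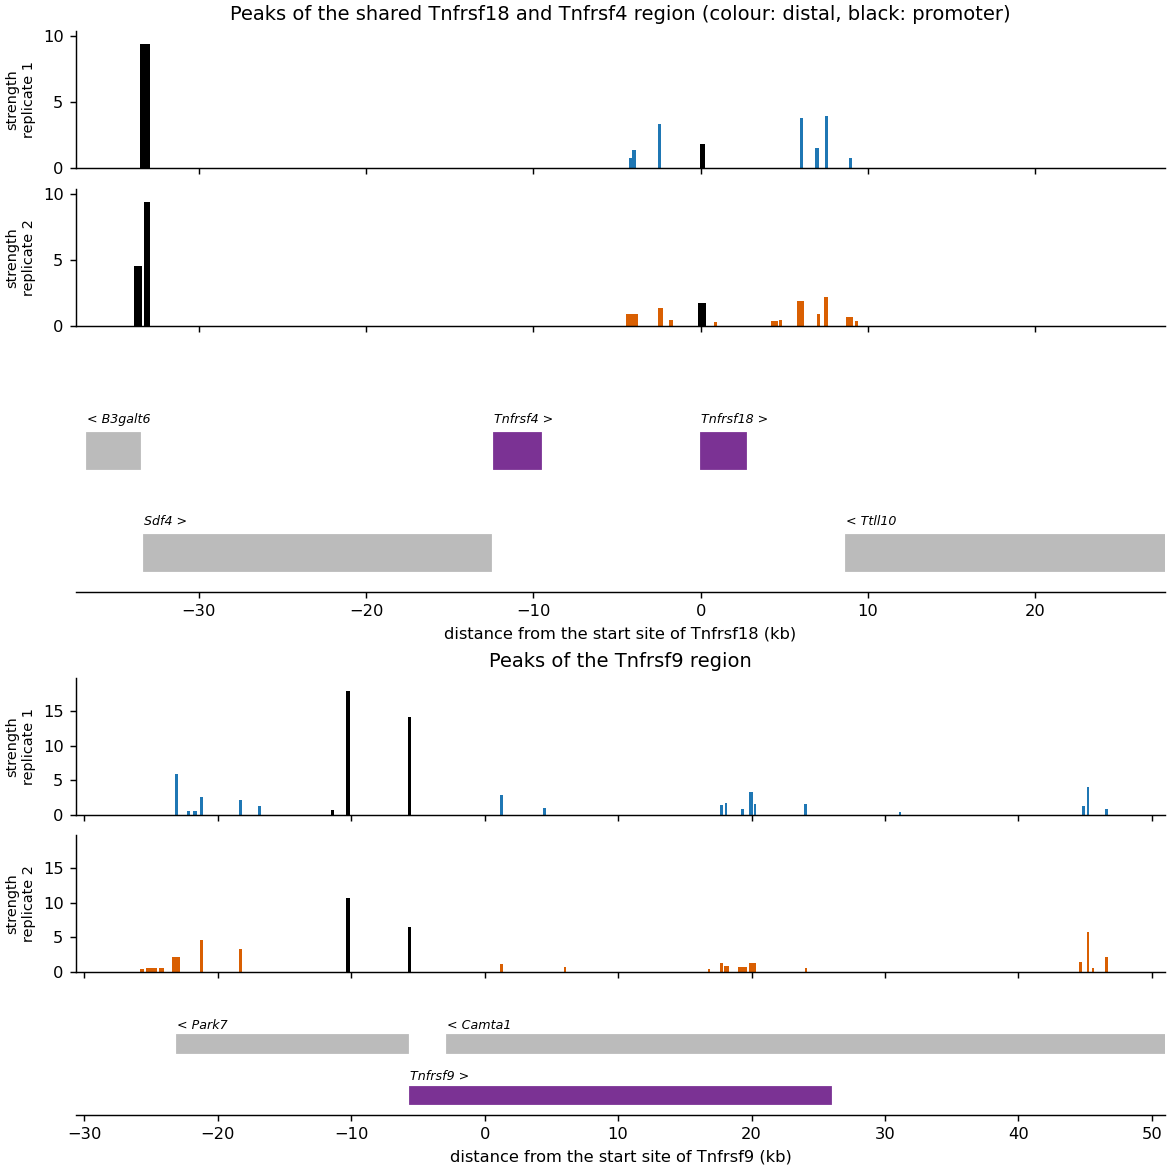
Strength of each peak by replicate against distance from the TSS of Tnfrsf18 (upper set) and from the most upstream basic TSS of Tnfrsf9 (lower set) in kb, with genes below as in the map of the Ltb region; coloured bars are distal and black bars promoter peaks. No bar stands at the start of Tnfrsf4 or at 0 kb for Tnfrsf9; distal bars stand on both sides of 0 kb for Tnfrsf9 and only to the right of Tnfrsf4.

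Other receptor genes with many distal peaks differed between the animals. Tnfrsf1a had 9 in replicate 1 and 23 in replicate 2, of which 8 of the 9 were shared, and a peak in its intron had 15.9 and 3.26. Tnfrsf25 had 5 and 13, and 5 and 12 of these lay inside other genes. Tnfrsf14, the HVEM gene, had 9 and 7, and its strongest shared distal peak, between genes, had 6.01 and 4.10. Replicate 2 had more distal peaks over the whole genome too, as the medians of all genes show.

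Among ligands outside the lymphotoxin region, Fasl had 11 and 13 distal peaks, all between genes, and 10 of each were shared. Its strongest had 5.85 and 2.78. Tnfsf11, the RANKL gene, had 6 and 5, of which 5 were shared, and its strongest distal peak had 1.47 and 2.59. For the receptors of this crosstalk, Tnfrsf11a had 7 and 3, Ltbr 4 and 3 and Cd40 2 and 4. Tnfrsf11b had no distal peak and no footprint in either animal. The other 10 genes without a promoter peak had at least 1 distal peak in both. The same share among all closed genes was not counted, so this is not read as a trait of the family.

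Tnfrsf22 and Tnfrsf23, which encode decoy receptors of TRAIL, lie beside Tnfrsf26 in a cluster on chromosome 7 that held 12 distinct distal peaks in replicate 1 and 15 in replicate 2. By gene the animals differed, with 3 and 12 for Tnfrsf26, 2 and 7 for Tnfrsf22 and 9 and 3 for Tnfrsf23. Near-identical copies can move reads between genes, so the peaks were checked for repeated 32-base words. Of 520 peaks of the family, 4 had under 50% unique words, and they lay near Tnfrsf10b, Tnfrsf13b and Tnfrsf23. Inside Tnfrsf23 itself lay 7 distal peaks in replicate 1 and 0 in replicate 2. Those 7 had 21.7% to 88.0% unique words, so the difference between the animals at Tnfrsf23 rests on partly repeated sequence. Whether the repeats account for it was not tested.

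Of the 4 receptor genes with a closed promoter outside the costimulatory group, Tnfrsf11b had no distal peak, as given above, and the other 3 had several. Tnfrsf13b had 8 and 9, Tnfrsf10b 8 and 7 and Tnfrsf17 5 in each animal. These 3 were above the median of all genes, at 11.7, 11.2 and 8.89 per 100 kb. Among closed ligand genes, Cd70 had 1 in each animal and Tnfsf12 2 and 5.

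In 17 of the 27 open genes (63.0%) the strongest distal peak of the region was stronger than the gene's own strongest promoter peak in both animals, beside 23.4% of all open genes. The measure was chosen after values were seen, and Ltb, Tnf and Lta share the peak that counts for them. Promoters of the family were weaker than those of all open genes, as given above, and the shares were not matched for this. The distal peak could differ between the animals and lie in a neighbour. For Tnfrsf1a it lay in its own intron in replicate 1 (15.9) and in Plekhg6 in replicate 2 (3.56). Tnfrsf1a, Tnfrsf14, Tnfrsf23, Tnfsf9, Fasl and Ngfr were among the 17. The promoter was stronger in both animals in 5 genes, Tnfrsf11a, Tnfsf8, Tnfrsf22, Tnfrsf12a and Tnfrsf21.

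The recurrence of peaks between animals depended on the overlap asked for. Of the distal peaks, 77.7% of those in replicate 1 and 62.3% of those in replicate 2 shared at least 1 bp with the other replicate, beside 73.1% and 62.2% of all distal peaks. Of the promoter peaks, 83.3% and 80.4% did, beside 84.1% and 85.4%. When the overlap had to reach 50% of both peaks, promoter peaks of the family recurred less, at 45.2% and 47.8%, beside 65.4% and 67.5% of all promoter peaks. The distal shares were then 59.6% and 47.3%, beside 54.7% and 47.5%. Distal density correlated between the animals with an r of 0.82 and a rho of 0.81 across the 40 genes, again only a description, since neighbours share peaks.

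Footprints anywhere in the region had a median of 32.1 per 100 kb, beside 23.6 over all genes. Among 150 distal peaks found in both animals, NF-kB matches were found in 14 (9.33%), beside 5.11% of all shared distal peaks, and the RUNX motif TGTGGT in 37 (24.7%), beside 22.0%. A footprint touched a RUNX match in 18 of the 150 peaks in replicate 1, beside 7.28% of all shared distal peaks, and in 14 in replicate 2, beside 5.84%. The same match was touched in both replicates in 11 peaks, beside 3.63%. For NF-kB this held for 0 of the 150, beside 0.994%. The NF-kB peaks included 2 near Tnfrsf4 and Tnfrsf18 and 1 in the Ltb, Tnf and Lta region. CTCF matches were found in 14 (9.33%), beside 9.01%.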

How the data were processed

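DNase-seq files of 2 thymus samples were used. Peaks, footprints and tracks of false discovery rates were deposited per sample, each derived from its own mm10 alignments, per the labels' file listing. No source used here names the aligner, the callers or how CAST alleles were treated. A peak's strength is the authors' signal value, deposited after division by an unstated factor per sample. False discovery rates stand in a p-value column that the authors deposited for runs of bases under 0.05 only. The footprint column is 0.01 throughout and was not used.

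Genes came from the GENCODE M21 basic set, after 27 duplicated symbols were left out, and sequence from GRCm38.p6. Peaks of the longer list were counted as deposited, overlapping ones included. Percentiles of promoter strength are among genes open in both replicates, except where 1 replicate was left out. With 1 group no test was made. Motif matches were exact matches to a consensus, counted on both strands in 200 bases. Interval functions were tested on simulated data. Python 3.11.15, numpy 2.4.6, scipy 1.17.1 and matplotlib 3.10.9 were used.

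The members and lists were chosen with earlier results of these data known. Values were given for the 12 open genes with the highest promoter percentile, the 8 with the most distal peaks per 100 kb, the crosstalk and costimulation groups, and genes open in 1 replicate. Sequences followed the 3 strongest distal peaks by mean percentile and at most 5 promoters. The alternatives were the shorter peak list, other windows and flanks, other TSS sets, leaving out each replicate, and stricter overlaps.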

Additional observations from a re-analysis of the deposited data

How the results depend on the processing

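No paired analysis was possible because there is 1 group. Every count of open promoters stayed within 1.5 times its reported value under each alternative run. Leaving out 1 replicate gave 27 to 29 open genes, 10 to 12 ligands, 17 to 17 receptors and 26 to 27 genes with a promoter footprint. It gave a median percentile of 22.3 to 23.0, 6.61 to 8.64 distal peaks and 30.0 to 32.4 footprints per 100 kb. These percentiles were among genes open in the replicate that was kept, unlike those given in the results. Requiring footprints to overlap by at least 50% of each gave 17 genes. The median promoter percentile, 21.96 as the median of both replicates' mean, was 18.4 with the shorter list and 18.98 within 1000 bp. Distal density was 10.7 with 10 kb flanks, 11.3 in gene bodies alone and 5.23 with the shorter list. The medians of all genes were then 4.37, 2.28 and 2.83. Footprint density was 39.7 with 10 kb flanks, 37.2 with 50 kb flanks and 41.7 in gene bodies. The mean share of distal peaks shared between animals was 70.0%, and 53.4% when the overlap had to reach 50% of each peak, beside 51.1% over all distal peaks. The comprehensive TSS set, merged peaks, 1 value per locus and the removal of peaks inside other genes were chosen after seeing the data. With 2 animals and unknown depth, an absent peak means that none was called.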
